A study of Homo sapiens with 6 samples.

Results

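RAB, ARF and ARL genes encode small GTPases, molecular switches that sit on membranes in their GTP-bound form and recruit the coats, tethers and motors that move vesicles between compartments. The genes described here were those whose probe sets carried a single gene symbol made of RAB, ARF or ARL, a number and at most 1 further letter. The rule found 51 genes on 93 probe sets, of 11963 genes with a single-symbol probe set in the table. A gene was tested when at least 1 of its probe sets lay above the median of all values (52.5) on 3 or more of the 6 arrays, and it was represented by the one of these with the highest mean log2 value. That left 39 of the 51 genes, 31 RAB, 4 ARF and 4 ARL, among 7035 tested genes in all.

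RAB proteins carry prenyl lipids on C-terminal cysteines and are taken out of membranes by GDP dissociation inhibitors, whereas ARF proteins are myristoylated at the N terminus. Exchange factors switch them on and GTPase-activating proteins switch them off. In epithelial cells RAB11-type GTPases return internalised receptors and adhesion proteins to the surface, RAB5 marks early endosomes, RAB7 late endosomes and lysosomes, and RAB1, RAB2 and the class I and II ARFs serve traffic between the endoplasmic reticulum and the Golgi.

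The RNA came from PC3 cells, a human prostate cancer line that started from a bone metastasis, grown in RPMI medium. According to the labels' protocols, 1 group of 3 arrays (replicates 1 to 3) held cells given the plasmid vector alone and selected with puromycin, though titles and genotype labels call these cells wild type. The other 3 arrays (replicates 4 to 6) held cells given a pLNCX plasmid for human PSMA, the prostate-specific membrane antigen encoded by FOLH1, with the same selection. Whether each line was a clone or a pool, and whether replicates were separate cultures, the labels do not say, so that the spread behind each p-value is that among these arrays and may be technical. Values are GCRMA intensities in arbitrary units, 1 per probe set and array. Precision is limited by the number of arrays, and intensities of different genes are not compared because each probe set has its own response.

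The FOLH1 probe sets went against the labels. The brightest one, which FOLH1 shares with its paralog FOLH1B, read 477, 417 and 548 on arrays labelled control and 15.1, 8.58 and 13.7 on arrays labelled PSMA, and the groups were separated in the same direction on all 5 probe sets of the 2 genes. "Higher", "rose", "lower" and "fell" therefore refer only to arrays labelled PSMA relative to arrays labelled control, whatever FOLH1 read there. Of the markers of PC3 epithelium, KRT8, KRT18, EPCAM and CDH1 were all above the median on all 6 arrays, with a summed intensity of 13711 to 14025 on arrays labelled control and 10608 to 10920 on arrays labelled PSMA. Of the 4 leucocyte markers found, PTPRC, CD3E, CD14 and CD53, 0 were above the median on 3 or more arrays (summed 54.5 to 59.8 and 59.9 to 64.5). Of 6 fibroblast and endothelial markers, PECAM1 was (summed 156.3 to 164.8 and 138 to 148.3), and of the prostate luminal list, KLK3 and KLK2 were found and neither was (summed 29.6 to 31.5 and 32.5 to 37.7). The epithelial marker sum was lower on the same arrays as ARL14, RAB25 and RAB17, described next. Not all members known from epithelial traffic fell: RAB13 rose (log2 difference 0.51) and RAB8A did not pass (-0.01). The part of the marker sum in those results was not tested.

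ARL14 and RAB25, the epithelial members named by the rule, were both lower on arrays labelled PSMA. ARL14 encodes a GTPase that links vesicles to actin-based transport. It read 283, 301 and 281 on arrays labelled control and 37.4, 27.0 and 27.5 on arrays labelled PSMA. The groups lie far apart, and the lower values are under the median of the table. The difference was 9.53-fold, a log2 difference of -3.25 (SE 0.114, 95% interval -3.51 to -2.99, limma adjusted p = 1.07e-07). Because only the arrays labelled control lay above the median, this gene entered the test through the group in which it was high.

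RAB25 is the epithelial relative of RAB11A and is known for returning integrins to the cell surface. Its probe set read 71.5, 79.4 and 66.1 on arrays labelled control and 48.9, 54.7 and 50.8 on arrays labelled PSMA. All values were close to the median of the table, and 1 of the 3 arrays labelled PSMA lay above it. The groups did not overlap, with a 1.40-fold fall and a log2 difference of -0.49 (SE 0.0731, 95% interval -0.66 to -0.32, limma adjusted p = 0.000442). Set against a minimum fold of 1.5, RAB25 did not pass (limma adjusted p = 1).

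RAB17, which controls transcytosis and recycling in polarised epithelia, is named here after its values were seen. It read 81.0, 78.8 and 76.0 on arrays labelled control and 50.9, 59.8 and 63.3 on arrays labelled PSMA, again without overlap. Its log2 difference was -0.44 (SE 0.0780, limma adjusted p = 0.00112). RAB11A, the widely expressed recycling GTPase of the same subfamily as RAB25, read 1770, 1806 and 1851 against 1546, 1500 and 1484, a smaller fall of 0.26 on the log2 scale (SE 0.0422, limma adjusted p = 0.000701). Its second probe set fell by 0.41 (limma adjusted p by probe set 0.00140; 60.6% of all probe sets past the filter were called). RAB11B stayed below the filter, at 27.0 to 30.1 on arrays labelled control and 27.9 to 31.4 on arrays labelled PSMA.

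The promoter windows of RAB25, RAB17 and RAB11A are shown because CACCTG, the core of the E-box bound by repressors of epithelial genes, can be looked for in them. Each window is the RefSeq sequence (GRCh38.p14) from 250 bases before to 50 after a start site, given 5' to 3' on the gene's strand. Capitals mark CACCTG or its reverse complement CAGGTG, the only motif searched. RAB25 lies on the plus strand at chr1:156060910-156061209, RAB17 on the minus strand at chr2:237590685-237590984, and RAB11A on the plus strand at chr15:65869241-65869540.
RAB25: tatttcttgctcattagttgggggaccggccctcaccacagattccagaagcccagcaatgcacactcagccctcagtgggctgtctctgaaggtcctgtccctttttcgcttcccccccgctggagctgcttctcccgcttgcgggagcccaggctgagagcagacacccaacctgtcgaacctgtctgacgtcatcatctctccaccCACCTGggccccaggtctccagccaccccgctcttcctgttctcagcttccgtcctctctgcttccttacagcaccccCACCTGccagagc
RAB17: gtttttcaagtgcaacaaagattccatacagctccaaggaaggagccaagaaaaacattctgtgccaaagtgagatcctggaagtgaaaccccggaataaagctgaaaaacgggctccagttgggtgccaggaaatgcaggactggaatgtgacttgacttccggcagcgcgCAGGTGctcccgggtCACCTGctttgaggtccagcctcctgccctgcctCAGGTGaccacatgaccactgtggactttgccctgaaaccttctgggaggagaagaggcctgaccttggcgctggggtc
RAB11A: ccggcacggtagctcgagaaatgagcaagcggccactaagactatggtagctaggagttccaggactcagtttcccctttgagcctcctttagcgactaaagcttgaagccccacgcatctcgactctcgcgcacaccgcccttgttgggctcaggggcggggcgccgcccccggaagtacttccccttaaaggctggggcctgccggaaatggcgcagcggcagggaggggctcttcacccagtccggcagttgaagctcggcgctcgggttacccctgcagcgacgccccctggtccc

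The RAB25 window held 2 copies of the motif, the RAB17 window 3 and the RAB11A window 0. Of all 35116 promoter windows in the table, 20.6% held at least 1 copy, 3.49% at least 2 and 0.635% at least 3. Among tested RAB, ARF and ARL genes, 31 had an entry, with 39 windows, of which 20.5% held at least 1 copy and 2, those of RAB25 and RAB17, held 2 or more. The share with a copy was thus that of all promoters. Of 15 windows of members that fell, 5 held at least 1 copy. For members that rose it was 1 of 11 windows, and for members not past 2 of 13. The difference between these shares was not tested. Besides RAB11A, the windows of RAB21, RAB8B, RAB5A, RAB7A, RAB1B, ARF5, ARF6 and RAB3A, which also fell, held 0 copies. ARL14 had no entry in the table. RAB25 and RAB17 had 9 and 7 CG dinucleotides in 300 bases, against a median of 25 over the tested windows of this family and 14 over all windows. Both counts lay inside the 5th to 95th percentile of the family (1 to 39.6) and of all windows (1 to 42). The windows of RAB27A, which did not pass, held 1 to 23. The windows of the 2 genes with the largest increase, RAB31 (plus strand, chr18:9708051-9708350) and RAB40B (minus strand, chr17:82698649-82698948), are shown as well.
RAB31: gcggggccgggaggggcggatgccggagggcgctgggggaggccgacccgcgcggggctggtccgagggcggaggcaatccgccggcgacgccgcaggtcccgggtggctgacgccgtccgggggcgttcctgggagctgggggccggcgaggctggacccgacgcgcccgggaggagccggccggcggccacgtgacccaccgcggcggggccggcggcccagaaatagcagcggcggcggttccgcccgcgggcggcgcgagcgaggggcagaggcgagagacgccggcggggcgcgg
RAB40B: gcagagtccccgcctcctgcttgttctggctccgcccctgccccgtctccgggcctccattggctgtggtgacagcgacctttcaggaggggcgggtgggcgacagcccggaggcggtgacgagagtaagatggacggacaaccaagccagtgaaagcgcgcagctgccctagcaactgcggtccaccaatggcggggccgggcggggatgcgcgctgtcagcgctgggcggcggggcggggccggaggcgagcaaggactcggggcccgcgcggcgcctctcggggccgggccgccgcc

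These windows held 52 and 34 CG dinucleotides and 0 copies of the motif. Other genes that rose differed from them: the RAB4A window held 1 copy, the RAB29 window 12 CG dinucleotides, and the windows of RAB13 1 and 14. A match in these letters is a description of the reference sequence; binding was not measured.

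Over the whole family, 27 of the 39 tested genes (69.2%) passed the limma threshold of 0.05 on the adjusted p, against 63.6% of all tested genes. Of these 10 rose and 17 fell, where 30.1% of all tested genes rose and 33.5% fell. The groups were fully separated in 30 of the 39, 12 higher and 18 lower, against 69.5% of all tested genes (32.9% higher and 36.6% lower). The median log2 difference was -0.04, beside -0.01 for all tested genes, and the median size was 0.26 beside 0.22. These shares lie near those of all tested genes, so that nothing particular to the family is read from them. Size set fewer members apart: 11 passed with a log2 difference of at least 0.5 in size (18.4% of all tested genes did) and 2, ARL14 and RAB31, reached 2-fold (4.41% of all tested genes). Tested against a minimum fold of 1.5, limma called ARL14, RAB31 and RAB40B, 3 of 39, where 7.48% of all tested genes were called.

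**Figure D1:**
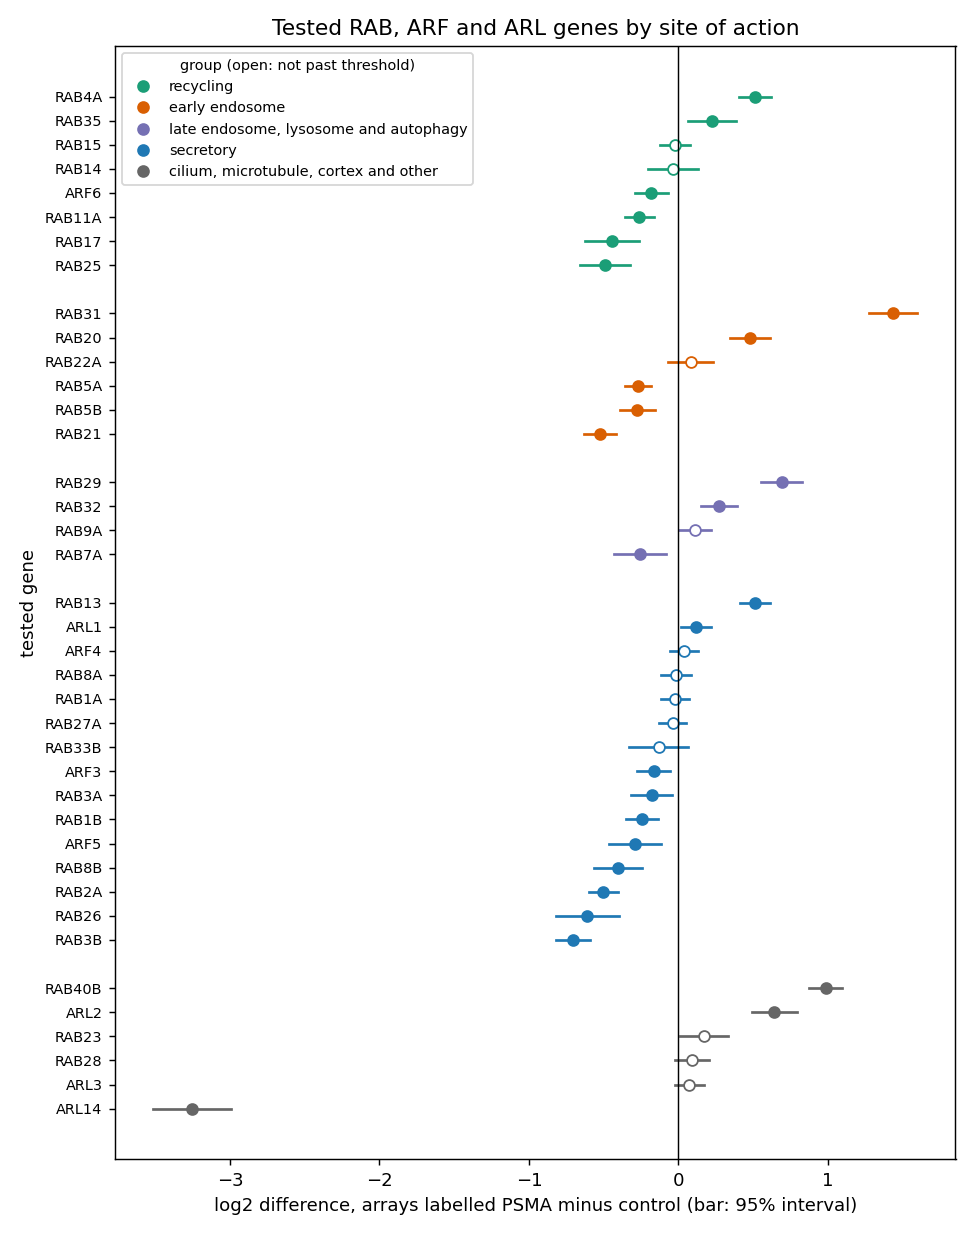
Log2 difference (arrays labelled PSMA minus arrays labelled control) of each of the 39 tested genes with its 95% interval, grouped by main site of action; open points did not pass the threshold. ARL14 at -3.25 stands far below all others, which lie between -0.71 (RAB3B) and 1.44 (RAB31).

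Recycling GTPases went both ways. Of 8 tested genes 4 fell (RAB25, RAB17, RAB11A and ARF6), 2 rose (RAB4A and RAB35) and 2 did not pass (RAB14 and RAB15), with a median log2 difference of -0.11. That is 75% past the threshold, beside 63.6% of all tested genes (30.1% higher and 33.5% lower). The second probe set of RAB15 fell by 0.17 (limma adjusted p by probe set 0.00790). RAB4A, which drives the fast return of receptors from early endosomes, read 428, 403 and 419 on arrays labelled control and 618, 585 and 578 on arrays labelled PSMA. That is a 1.42-fold rise with no overlap (log2 difference 0.51, SE 0.0468, limma adjusted p = 2.45e-05), and its other 2 probe sets rose by 0.56 and 0.77. RAB35, also of the fast route, rose by 0.23, but its limma adjusted p of 0.0200 became 0.0668 without control replicate 1 and 0.0532 without PSMA replicate 6. ARF6, which acts at the plasma membrane in actin remodelling and clathrin-independent recycling, read 874, 930 and 910 against 779, 782 and 833, a fall of 0.18 on the log2 scale (limma adjusted p = 0.00939). All 3 of its passing probe sets were lower, 2 of them past the threshold. Arrays labelled PSMA thus had a higher signal for the fast-recycling RAB4A and a lower one for RAB11A and RAB25 of the slower route. The difference between these genes was not tested.

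Early endosome GTPases held the largest increase of the family. RAB31, which acts between the trans-Golgi network and endosomes and in the traffic of growth factor receptors, read 27.9, 30.7 and 28.2 on arrays labelled control and 85.8, 77.9 and 71.9 on arrays labelled PSMA. It rose 2.71-fold (log2 difference 1.44, SE 0.0705, 95% interval 1.28 to 1.60, limma adjusted p = 7e-07). It lay under the median on all arrays labelled control and so entered the test through the group in which it was high. The same held for its other passing probe set, which rose by 1.37. The third, below the filter, was 1.01 higher. RAB20, linked to phagosome maturation, rose from 126.5, 124.8 and 143 to 184.7, 181.3 and 183.3 (log2 difference 0.48, SE 0.0579, limma adjusted p = 0.000121).

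Of 6 tested early endosome genes, 3 fell (RAB21, RAB5A and RAB5B), 2 rose (RAB31 and RAB20) and 1 did not pass (RAB22A). The share past the threshold was 83.3%, beside 63.6% of all tested genes. RAB21, which binds integrin tails and carries integrins inward, read 675, 650 and 628 against 452, 439 and 465, a 1.44-fold fall (log2 difference -0.53, SE 0.0467, limma adjusted p = 1.98e-05). RAB5A, the organiser of early endosome fusion, read 1795, 1823 and 1798 on arrays labelled control and 1504, 1505 and 1486 on arrays labelled PSMA, and RAB5B read 224, 228 and 212 against 174, 185 and 190. Neither overlapped between groups, and they fell by 0.27 and 0.28 on the log2 scale (limma adjusted p = 0.000354 and 0.00153). A second passing probe set of RAB5A, with overlapping groups, did not pass (log2 difference -0.09, limma adjusted p by probe set 0.369). The third paralog, RAB5C, lay below the filter. RAB22A did not pass by its representative (log2 difference 0.08, limma adjusted p = 0.305), but without PSMA replicate 6 it did (0.16, limma adjusted p = 0.0205), and its other passing probe set rose by 0.66.

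Of 4 tested genes of late endosomes and lysosomes, 2 rose, 1 fell and 1 did not pass. The share past the threshold was 75%, beside 63.6% of all tested genes. RAB29, which acts at the trans-Golgi network and on stressed lysosomes and recruits the kinase LRRK2, read 185, 197 and 174 on arrays labelled control and 311, 284 and 303 on arrays labelled PSMA. It rose 1.61-fold (log2 difference 0.69, SE 0.0588, limma adjusted p = 1.58e-05). Its second probe set rose by 0.80, but was above the median only on arrays labelled PSMA and passed the filter through them. RAB32, of lysosome-related organelles and mitochondria, rose by 0.27 (limma adjusted p = 0.00199). RAB7A, the GTPase of late endosome and lysosome fusion, read 773, 676 and 697 against 547, 599 and 655, groups that lie close to each other. Its fall of 0.26 (limma adjusted p = 0.0170) did not pass without control replicate 1 (0.0613) or without PSMA replicate 4 (0.0570), and its second passing probe set did not pass (log2 difference -0.05, limma adjusted p by probe set 0.371). RAB9A, which returns mannose 6-phosphate receptors to the Golgi, did not pass (log2 difference 0.11, limma adjusted p = 0.0626; 0.0464 without PSMA replicate 6).

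Secretory GTPases were the largest group, and 8 of its 15 tested genes fell, 2 rose and 5 did not pass, with a median log2 difference of -0.17. The share past the threshold, 66.7%, was near the 63.6% of all tested genes, of which 33.5% fell. The largest falls were those of RAB3B and RAB26, which act in regulated secretion. Of the same process, RAB3A fell less and RAB27A did not pass (log2 difference -0.04). RAB3B, a regulator of vesicle exocytosis, read 142, 138 and 135 on arrays labelled control and 79.9, 86.8 and 87.9 on arrays labelled PSMA, a 1.63-fold fall (log2 difference -0.71, SE 0.0506, limma adjusted p = 5.93e-06). RAB26, of secretory granules, read 61.5, 61.6 and 64.4 against 34.7, 45.1 and 43.9 (log2 difference -0.61, SE 0.0929, limma adjusted p = 0.000495). All 3 arrays labelled PSMA lay below the median for RAB26, which entered the test through the other group. RAB3A, its relative in exocytosis, was lower by 0.18, with a limma adjusted p of 0.0270 that became 0.0642 to 0.0968 when control replicate 1 or 3, or PSMA replicate 4 or 6, was left out.

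RAB2A, which acts between the endoplasmic reticulum and the Golgi, read 1007, 986 and 943 on arrays labelled control and 691, 692 and 689 on arrays labelled PSMA. The 3 latter values were nearly identical. The fall was 1.42-fold (log2 difference -0.50, SE 0.0428, limma adjusted p = 1.57e-05), and the gene's other 3 passing probe sets were lower by 0.07 to 0.41. In the pairs RAB1A with RAB1B and RAB8A with RAB8B, 1 gene fell and the other did not pass, with the difference between them not tested. In other pairs of near relatives, RAB5A with RAB5B and RAB3A with RAB3B, both genes fell. RAB1B fell by 0.24 (limma adjusted p = 0.00193), while RAB1A, of the same step from the endoplasmic reticulum to the Golgi, had a log2 difference of -0.02 (95% interval -0.12 to 0.07). RAB8B, of traffic from the Golgi to the surface, fell by 0.40 (limma adjusted p = 0.000966), and RAB8A had a log2 difference of -0.01 (95% interval -0.11 to 0.08).

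The ARF genes that pass coats onto Golgi membranes also split. ARF5 read 532, 520 and 619 on arrays labelled control and 459, 483 and 425 on arrays labelled PSMA and fell by 0.29 (limma adjusted p = 0.00985). ARF3 fell by 0.17 (limma adjusted p = 0.0141; 0.0501 without PSMA replicate 4), and its other 2 probe sets fell by 0.67 and 0.29. ARF4 read 4989, 4843 and 4979 against 4972, 5122 and 5112, overlapping groups with a log2 difference of 0.04 (limma adjusted p = 0.438). Its second probe set was 0.11 lower, without passing. ARL1, which brings golgins to the trans-Golgi network, rose by 0.12 on its representative (limma adjusted p = 0.0400) and by 0.36 and 0.41 on the other 2 probe sets. That representative did not pass when control replicate 1 or 2, or PSMA replicate 5 or 6, was left out (limma adjusted p = 0.0930 to 0.143).

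RAB13, a GTPase of tight junction assembly and surface delivery, was the secretory gene that rose most. It read 1243, 1215 and 1297 on arrays labelled control and 1749, 1791 and 1822 on arrays labelled PSMA (1.43-fold, log2 difference 0.51, SE 0.0443, limma adjusted p = 1.68e-05). Of other members described here for epithelial or recycling traffic, ARL14, RAB25, RAB17, RAB11A and ARF6 fell and RAB4A and RAB35 rose. RAB14 and RAB15 did not pass. Of traffic to the surface, RAB8B fell and RAB8A did not pass. This is not a fixed list, and the tally depends on which members are named. Among genes that did not pass were RAB27A, of exosome and granule secretion (log2 difference -0.04), and RAB33B, of the Golgi and autophagy (-0.13, limma adjusted p = 0.207; 0.0284 without control replicate 3). The probe sets of RAB27A disagreed, with 1 of 3 passing the filter higher by 0.29 (limma adjusted p by probe set 0.0410) and the others at 0.01 and -0.04. RAB1A showed the same, with 1 of 3 probe sets higher by 0.34 (limma adjusted p by probe set 0.00115). Together with ARF4 these were the 3 of 17 members with several passing probe sets whose signs differed.

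The remaining 6 tested genes act at cilia, microtubules or the cell cortex, or have other roles. RAB40B, an unusual RAB whose SOCS box recruits a ubiquitin ligase, read 198, 191 and 184 on arrays labelled control and 392, 367 and 376 on arrays labelled PSMA. It rose 1.98-fold (log2 difference 0.99, SE 0.0479, 95% interval 0.88 to 1.10, limma adjusted p = 6.63e-07), whereas its second passing probe set differed by 0.08 and did not pass (limma adjusted p by probe set 0.519). ARL2, which works with tubulin cofactors in microtubule assembly, read 203, 217 and 219 against 304, 359 and 336 (log2 difference 0.64, SE 0.0659, limma adjusted p = 4.71e-05). Its probe set is of a type that can bind related transcripts, as are those of ARF6, RAB27A and RAB23. The ciliary genes ARL3 (0.07), RAB28 (0.09) and RAB23 (0.17) did not pass, though RAB23 did without control replicate 2 (limma adjusted p = 0.0403) or PSMA replicate 5 (0.0318).

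**Figure D2:**
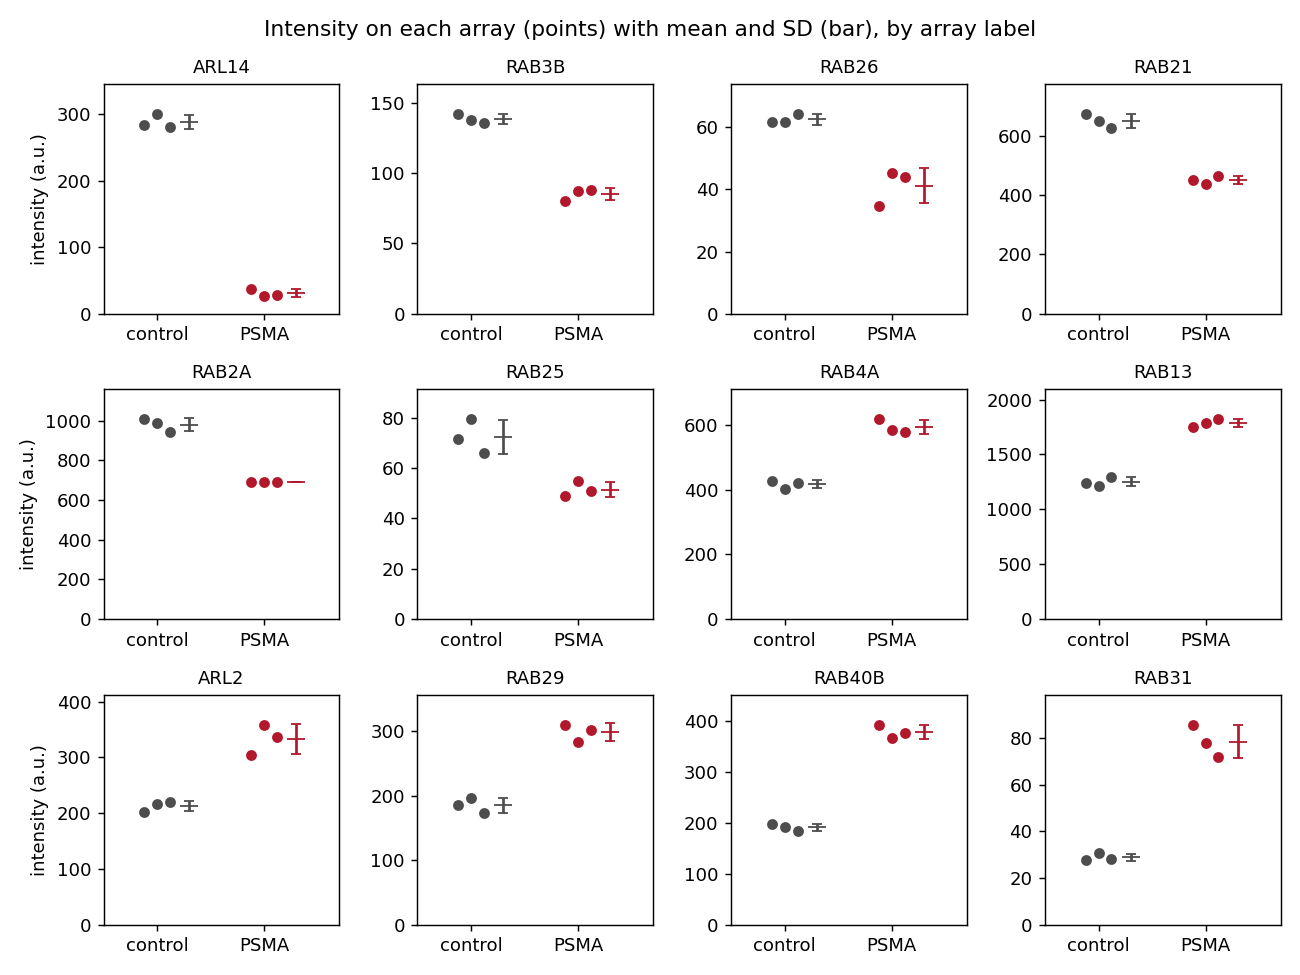
Intensity in arbitrary units on each of the 3 arrays per label (points) with mean and SD (bar) for ARL14, RAB25 and the 10 other genes that passed with a log2 difference of at least 0.5 in size. In each panel the 3 values of one label lie wholly above the 3 of the other (for ARL14, 281 or more against 37.4 or less).

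Across the 12 tested genes that did not pass, log2 differences lay between -0.13 and 0.17 and 95% intervals between -0.33 and 0.33. The 12 genes below the filter, ARL15, RAB11B, RAB27B, RAB30, RAB33A, RAB36, RAB38, RAB3D, RAB40A, RAB40C, RAB5C and RAB6B, read 6.07 to 47.4 on all arrays. They were not tested, and in 4 of them the groups did not overlap: RAB36 (15.1 to 18.3 and 22.1 to 24.4) and RAB40A were higher, RAB27B (39.8 to 47.4 and 34.6 to 37.4) and RAB38 lower. How often the groups separate among all genes below the filter was not computed, so nothing is read from this count. A further 7 probe sets that carry the symbols of ARF1, RAB4B or RAB6A together with another gene's were not used.

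Genes near each other on a chromosome shifted together in parts of this comparison, so each member was set beside its 7 tested neighbours on either side in RefSeq order (fewer at chromosome ends). Over all genes, 90% of such neighbour medians lay between -0.32 and 0.40, and 4 members lay among neighbours with a median above that range. RAB20, on chromosome 13, rose by 0.48 among 14 neighbours that were all higher, with a median of 0.96. RAB29, on chromosome 1, rose by 0.69 beside 14 higher neighbours with a median of 0.52. RAB15, of neuronal and endocytic recycling, on chromosome 14, had a log2 difference of -0.02 where 13 of 14 neighbours were higher, with a median of 0.80. RAB17, on chromosome 2, fell by 0.44 while all 14 neighbours were higher, with a median of 0.74. RAB22A, on chromosome 20, also had 14 higher neighbours, with a median of 0.37.

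The other large differences stood among neighbours with medians inside that range. The neighbours of ARL14 on chromosome 3 had a median of -0.24, with 10 of 14 lower. The neighbours of RAB31 had a median of -0.09, those of RAB40B 0.01 (10 genes), those of ARL2 0.01, those of RAB3B -0.13 and those of RAB25 0.12, with 12 of 14 higher where RAB25 itself fell. RAB4A had a neighbour median of 0.29. The part of the neighbourhood in any of these values was not tested.

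**Figure D3:**
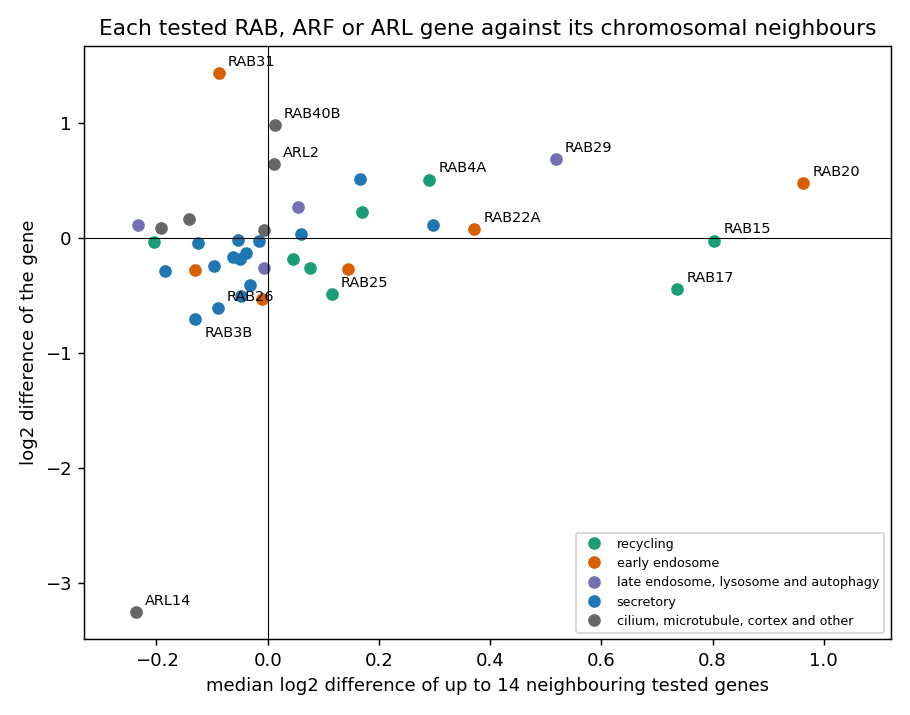
Log2 difference of each of the 39 tested genes (vertical) against the median log2 difference of its neighbouring tested genes (horizontal), coloured by site of action. RAB20 and RAB29 rise within raised neighbourhoods, RAB15 (-0.02) and RAB17 (-0.44) do not, and RAB31 and RAB40B lie far above 0 with neighbour medians of -0.09 and 0.01.

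The proteins that load, switch and read these GTPases were taken from fixed lists of 165 genes, of which 110 were tested. Of these 37 rose and 41 fell, 70.9% in all, beside 63.6% of all tested genes (30.1% higher and 33.5% lower), with a median log2 difference of -0.03. The genes for RAB prenylation and release from membranes were mostly lower: 5 of 6 fell and 1 rose. RABGGTB, the catalytic subunit of the RAB prenyltransferase, read 771, 794 and 834 on arrays labelled control and 510, 537 and 532 on arrays labelled PSMA (log2 difference -0.60, SE 0.0473, limma adjusted p = 9.63e-06). CHML, the escort protein that presents RABs to that enzyme, fell by 0.57 (limma adjusted p = 3.17e-05), RABAC1 by 0.56, RABGGTA, the other subunit of the enzyme, by 0.40 and the GDP dissociation inhibitor GDI2 by 0.33. RABIF, a RAB chaperone, rose by 0.33 among 14 neighbours that were all higher, with a median of 0.54. GDI2 lay among neighbours of which 13 of 14 were lower (median -0.41), and RABGGTA among neighbours of which 11 of 14 were lower (median -0.26). Each of the 6 was past the threshold, and 0 of them passed against a minimum fold of 1.5.

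Exchange factors and GTPase-activating proteins of RABs went both ways. Of 19 tested exchange factors 6 rose and 7 fell (68.4% past the threshold, beside 63.6% of all tested genes). RIN3, an exchange factor for the RAB5 subfamily to which RAB31 belongs, read 27.8, 29.4 and 36.4 on arrays labelled control and 79.5, 65.6 and 67.7 on arrays labelled PSMA, a 2.28-fold rise (log2 difference 1.19, SE 0.108, limma adjusted p = 2.24e-05). It too was above the median only on arrays labelled PSMA, and its 14 neighbours were all higher, with a median of 0.35. DENND2B rose by 0.56, while DENND2A and DENND2D fell by 0.81 and 0.47. All 14 neighbours of DENND2A were lower (median -0.37). Of 18 tested GTPase-activating proteins 7 rose and 6 fell (72.2% past the threshold). TBC1D5, which acts on RAB7 with the retromer, rose from 396, 407 and 364 to 722, 726 and 722 (log2 difference 0.90, SE 0.0509, limma adjusted p = 1.57e-06). TBC1D4, of glucose transporter vesicles, rose by 0.63 among 14 higher neighbours (median 0.79), and its relative TBC1D1 fell by 0.56; USP6NL, which acts on RAB5, fell by 0.51.

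RAB effectors were 5 higher and 8 lower of 21 (61.9% past the threshold, beside 63.6% of all tested genes). Of the 3 tested effectors of the RAB11 family, 1 fell, 1 rose and 1 did not pass. RAB11FIP1 read 261, 237 and 226 on arrays labelled control and 169, 171 and 146 on arrays labelled PSMA and fell by 0.58 (SE 0.0756, limma adjusted p = 0.000198), RAB11FIP2 rose by 0.53 (limma adjusted p = 7.05e-05), and RAB11FIP5 had a log2 difference of -0.04 (limma adjusted p = 0.625). GOLGA2, a golgin that binds RAB1, fell by 0.62. MLPH, the linker of RAB27A to myosin V, rose by 0.55 in the raised neighbourhood on chromosome 2 that also holds RAB17 (neighbour median 0.69).

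On the ARF side, 4 of 9 exchange factors rose and 3 fell, and 9 of 18 GTPase-activating proteins rose and 5 fell. In each of these lists 77.8% passed the threshold, beside 63.6% of all tested genes. The ARF6 exchange factor IQSEC1 rose by 0.66 and the Golgi exchange factor ARFGEF2 by 0.58, while PSD4, another exchange factor for ARF6, read 92.9, 80.1 and 89.0 against 49.5, 45.3 and 46.7 and fell by 0.89 (SE 0.0639, limma adjusted p = 6.05e-06). PSD4 was above the median only on arrays labelled control and entered the test through them. CYTH2 fell by 0.26. The neighbours of ARFGEF2 had a median of 0.27, with 13 of 14 higher, and those of IQSEC1 0.20, with 11 of 14 higher. Of the GTPase-activating proteins, ADAP1 rose by 0.95 and AGAP1 by 0.87, SMAP1 fell by 0.57, and ARAP2 fell 2.15-fold, from 211, 222 and 193 to 107, 89.3 and 95.1 (log2 difference -1.11, SE 0.0762, limma adjusted p = 4.84e-06). The neighbours of AGAP1 had a median of 0.37, with 12 of 14 higher, and those of ADAP1 0.01, with 6 of 11 higher. Of 19 tested effectors of ARFs and ARLs 5 rose and 7 fell (63.2% past the threshold). PDE6D, a carrier of lipidated proteins that is unloaded by ARL2 and ARL3, rose by 0.56, with 13 of 14 neighbours higher (median 0.37). GGA3, an ARF-bound clathrin adaptor, rose by 0.39, with 12 of 14 neighbours higher (median 0.21). RP2, the GTPase-activating protein of ARL3, fell by 0.61 among 14 lower neighbours (median -0.35), and ARFIP2 fell by 0.64 where 13 of 14 neighbours were lower (median -0.50).

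**Figure D4:**
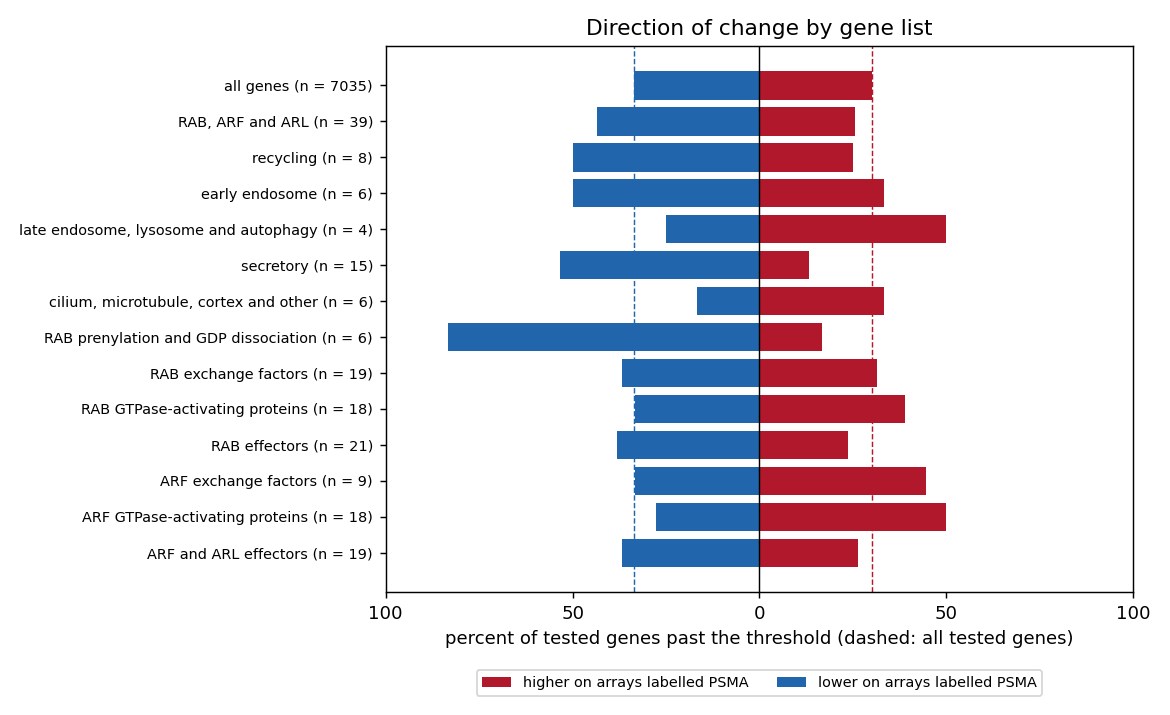
Percent of tested genes past the limma threshold in each list, higher to the right and lower to the left, with dashed lines at the shares of all 7035 tested genes (30.1% higher, 33.5% lower). Most lists lie on both sides. Among those that lean to the lower side are the prenylation list (5 lower and 1 higher of 6) and the secretory group (8 lower and 2 higher of 15). The recycling group (4 lower and 2 higher of 8) leans the same way. The ARF GTPase-activating proteins (9 higher and 5 lower of 18) lean to the higher side.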

How the data were processed

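Gene expression was measured on 6 Affymetrix arrays, 3 per label. The deposited values are linear intensities, 1 per probe set (22277 in all), made by the authors with GCRMA per the submitters' processing notes; its version and any later step are not given in the sources used here. That the scale is linear was read from the values, which run from 3.76 to 17455. GCRMA pulls dim probe sets to a common low level, which can widen or narrow folds against dim groups. Probe sets were named from the platform annotation; 0 symbols needed an update against RefSeq GRCh38.p14.

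The log2 of these values, with no pseudocount and no further normalization, entered limma's lmFit and eBayes (version 3.58.1 under R 4.3.3; PSMA minus control) for all 7035 tested genes, two-sided, with Benjamini-Hochberg adjustment and a threshold of 0.05. On simulated data for this comparison over 7035 genes the fit recovered 86 of 100 genes changed by 0.5 and 99 of 100 changed by 1 (log2). Only these genes were changed there, with normal noise of each gene's SD over the arrays labelled control. In the real data 63.6% of tested genes passed, so these shares need not carry over. Python 3.11.15, pandas 2.3.3 and matplotlib 3.10.9 made summaries and plots.

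The members, the groups by site of action, the regulator lists and the motif were chosen with earlier results of these data known. Named were ARL14, RAB25, members past the threshold with a log2 difference of at least 0.5 in size, the brightest member of each group, members whose probe sets disagree, and up to 2 regulators per list and direction. Other genes were named after their values were seen. Alternatives covered normalization, dim values, filter, probe set choice, prior variance, minimum fold and leaving out each array.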

Additional observations from a re-analysis of the deposited data

How the results depend on the processing

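Apart from the minimum fold of 1.5, the number of members called ranged from 22 of 34 to 30 of 39. The former kept only probe sets above the median on all 6 arrays (64.7%, beside 63.5% of all genes). The latter used quantile normalization (76.9%, beside 63.6% of all genes). The lowest share among these alternatives, 26 of 51 (51%), came with no filter, where 38.6% of all genes were called. When 1 array was left out, 23 to 27 members and 3999 to 4442 genes were called. Of the 39 tested members, 23 kept call and sign in all of these alternatives in which they were tested, and 16 did not in at least 1. ARL14 kept its call throughout, with a log2 difference of -3.40 to -3.17 without 1 array and -2.71 with a pseudocount of 16; with the filter on all 6 arrays it was not tested, nor were RAB17, RAB25, RAB26 and RAB31. RAB25 lay between -0.55 and -0.42 without 1 array.

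Against a minimum fold of 1.5, limma called 3 of 39 members and 526 of 7035 genes. By group it called 0 recycling, 1 early endosome, 0 late endosome and 0 secretory genes. In the group of cilium, microtubule, cortex and other genes it called 2, ARL14 and RAB40B. By regulator list it called 0 for prenylation, 2 RAB exchange factors, 1 RAB GTPase-activating protein and 0 RAB effectors. On the ARF side it called 1 exchange factor, 3 GTPase-activating proteins and 0 effectors of ARFs and ARLs. RAB25 (-0.49) did not pass. Such a test asks for a larger difference by construction. With quantile normalization 5 rather than 3 of the 6 cilium, microtubule and cortex genes passed. With the mean of all passing probe sets, ARF4 (-0.037), RAB1A (0.084) and RAB27A (0.085) changed sign, since their probe sets disagree; none passed in either setting. No paired analysis was possible because the labels give the groups different replicate numbers (1 to 3 and 4 to 6).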
